A study of Xenopus tropicalis with 192 samples.

Results

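The comparison was between webbing skin of cryga:GFP transgenic frogs and of Nigerian frogs of the same age, at every CpG measured. It holds 22 of the 192 frogs in the series: 3 Xtr.Tg(cryga:GFP)Grngr frogs of 273 days and 19 NIGERIAN F8 frogs of 269 days, taken by strain and age from the sample labels. All are Xenopus tropicalis, the western clawed frog, of the Nigerian background stock, and each sample is a punch of hindlimb webbing from 1 animal. The 3 transgenic samples have the word Tadpole in their titles but are listed as adults with webbing as tissue. Sex was not recorded. The Nigerian frogs came from a single tank, the tank entry of the transgenic frogs is marked as uncertain, and the age of the transgenic frogs is known to the month only. Strain, transgene and tank therefore cannot be told apart here, although both groups were sequenced in the same lane. The labels do not say that frogs of a group had separate parents, so p-values measure the spread between these frogs.

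DNA methylation is the addition of a methyl group to cytosine, in vertebrates mostly where a C is followed by a G (a CpG). Most CpGs of a vertebrate genome are methylated, while CpG-rich promoters are usually not, and the level at many CpGs drifts with age. Bisulfite turns unmethylated cytosine into a base read as T and leaves methylated cytosine as C, so the fraction of reads with C is the methylation level, and a T in the genome itself also reads as unmethylated. Genotypes and the transgene were not analysed here. In these transgenic frogs the promoter of cryga, a gamma-crystallin gene of the eye lens, drives green fluorescent protein, so webbing skin is not a tissue in which the promoter is known to be active.

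The assay captured regions chosen for CpGs that change with age, and gave a methylation fraction from 0 to 1 at 6717 CpGs, each read at least 100 times in every frog. Read counts were not used here, so beyond the floor of 100 reads the counting error of a single value is not given. Within cryga:GFP the average CpG differed between any pair of frogs by 0.0270 to 0.0347, and within Nigerian by 0.0268 to 0.0474 (median 0.0355, 171 pairs). The 57 pairs made of 1 frog from each group differed by 0.0421 to 0.0564 (median 0.0487). SUPERMAN F8 is a further strain of the same lane, with 9 frogs of 332 days. Pairs of a Nigerian and a SUPERMAN F8 frog differed by a similar amount, 0.0383 to 0.0585 (median 0.0470). No pair of frogs held identical values. A score was taken over the 100 CpGs that separate the 5 whole tadpoles of the series most from the 165 adults outside both groups. It averages the fraction at the 86 CpGs higher in tadpoles and 1 minus the fraction at the rest. The 3 cryga:GFP frogs scored 0.450, 0.30 and 0.494, and the Nigerian frogs 0.433 to 0.590. The tadpoles lay at 0.63 to 0.869 and the 165 adults at 0.111 to 0.587, a gap that follows in part from the choice of CpGs. On this score none of the 3 frogs reached the tadpole range, and frog 2 lay below every Nigerian frog.

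The probes of 5 places on which the comparison turns are printed here as designed, 5′ to 3′, with the limits listed for them on the v10.0 frog assembly. Capitals mark the CpGs that differed between the groups; in the anln, LOC101731736 and LOC100488536 probes they mark the CpG named in the text. The trpc4ap probe lies inside that gene on chromosome 10 (43029101 to 43029221) and repeats a 28-base unit, so the CpG of each copy has the same neighbours. The chromosome 1 probe (33050973 to 33051093) lies in a long intergenic stretch rich in differing CpGs and is itself made of a repeated motif. The anln probe on chromosome 4 (76426724 to 76426844) holds a CpG whose level falls in steps among the frogs. The probe near the start of chromosome 10 (10966 to 11086) and the probe on chromosome 3 (13274114 to 13274234) hold CpGs that were higher in cryga:GFP.
trpc4ap repeat: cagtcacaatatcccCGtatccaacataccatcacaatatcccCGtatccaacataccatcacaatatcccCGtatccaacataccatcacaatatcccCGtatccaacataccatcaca
chromosome 1 repeat: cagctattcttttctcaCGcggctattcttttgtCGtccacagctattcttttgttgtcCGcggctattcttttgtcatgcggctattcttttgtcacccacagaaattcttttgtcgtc
anln: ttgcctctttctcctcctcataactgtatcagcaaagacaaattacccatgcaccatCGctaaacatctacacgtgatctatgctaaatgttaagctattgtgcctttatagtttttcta
chromosome 10 start, near LOC101731736: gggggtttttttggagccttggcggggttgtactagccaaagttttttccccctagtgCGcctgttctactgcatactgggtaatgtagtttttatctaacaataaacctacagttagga
chromosome 3, near LOC100488536: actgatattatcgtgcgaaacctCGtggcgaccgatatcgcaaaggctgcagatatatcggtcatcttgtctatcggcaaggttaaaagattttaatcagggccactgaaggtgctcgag

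The cryga:GFP frogs differed from Nigerian frogs of the same age at 558 of 6717 CpGs (8.31%), and the difference was more often a lower level. Methylation was higher in cryga:GFP at 194 CpGs (2.89%) and lower at 364 (5.42%), by limma on log2 odds with a Benjamini-Hochberg adjusted p under 0.05. Of these, 10 higher and 142 lower CpGs are removed by a filter of the study, described further on. The same test called 480 CpGs (7.15%) between Nigerian and SUPERMAN F8 frogs, and 394 (5.87%) between cryga:GFP and SUPERMAN F8 frogs. Group sizes and ages differ among these comparisons, but a count of this size was not particular to the transgenic line. The log2 odds of a fraction is the log2 of methylated over unmethylated, with 0.001 added to both. On this scale the same change in fraction counts for more near 0 or 1 than near the middle. The median difference was 0.10 at the higher CpGs and -0.176 at the lower ones, against -0.0012 over all CpGs, of which 84.5% differed by less than 0.05. With a further requirement of a difference of at least 0.1, 353 CpGs (5.26%) remained, 98 higher and 255 lower. A difference of at least 0.3 was reached at 13 of the higher and 99 of the lower CpGs. The groups did not overlap at 372 CpGs (5.54%), with all cryga:GFP frogs above the Nigerian frogs at 110 and below them at 262. Among called CpGs the groups were apart at 96 of 194 higher (49.5%) and 254 of 364 lower (69.8%).

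**Figure D1:**
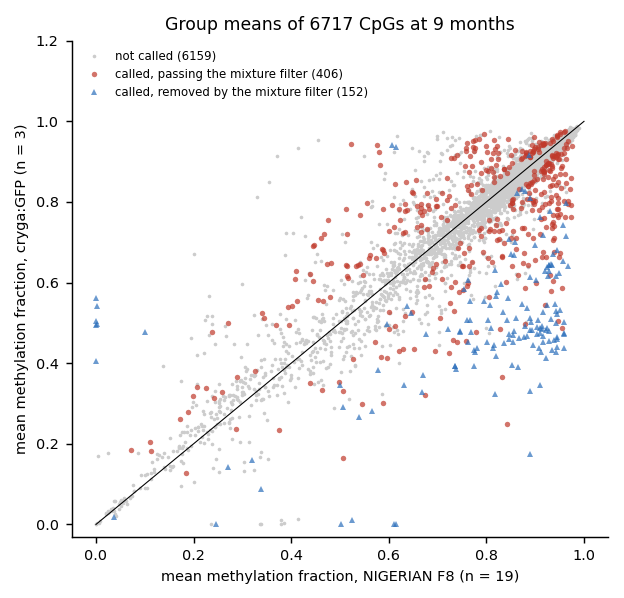
Each point is 1 of 6717 CpGs, with the mean methylation fraction of the 19 Nigerian frogs on the horizontal axis and that of the 3 cryga:GFP frogs on the vertical axis; grey points are not called, red points are called and pass the 3-level (mixture) filter (406), blue triangles are called and are removed by it (152), and the line marks equal means. The 364 CpGs lower in cryga:GFP lie below the line, mostly at the right where Nigerian frogs are highly methylated, and many blue triangles lie near 0.5 on the vertical axis.

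The direction of the calls differed by the level in Nigerian frogs, though on a scale that ends at 1 a CpG near the top has little room to be higher, and a level taken from 1 of the 2 groups compared favours this order. Of the 3489 CpGs with a Nigerian mean above 0.9, 20 were called higher and 159 lower, and from 0.8 to 0.9 the counts were 41 and 108 of 1532. From 0.5 to 0.8 they were near equal, 91 higher and 85 lower of 1242. From 0.1 to 0.5 higher calls led with 35 against 11 of 407. Calls fell inside annotated gene spans at 180 of 2533 CpGs (7.11%), within 5 kb of a gene at 59 of 804 (7.34%) and farther away at 319 of 3380 (9.44%). By chromosome the share of CpGs called was highest on chromosome 10 (35 of 156, 22.4%), next on chromosome 1 (215 of 1998, 10.8%), and lowest on chromosome 2 (18 of 820, 2.2%). The high shares came from few places, described further on. Of the 35 calls, 26 lay at the start of chromosome 10 and 5 in trpc4ap, and 143 of the 215 lay in 1 stretch of chromosome 1.

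A filter from the study, which compares Gaussian mixtures of 1 and 3 components, sets apart (removes) CpGs whose values over all frogs fall into 3 levels. The paper proposes germline changes from C to T in some strains as the likely cause, and left such CpGs out. Whether this holds for the CpGs called here was not tested. The filter was fitted anew here, so its set may differ slightly from that of the study, and set apart 543 CpGs. Of these, 152 were called (28.0%), 10 higher and 142 lower, while among the 6174 CpGs that passed 406 were called (6.58%), 184 higher and 222 lower. The CpGs named below were the 8 with the smallest p in each direction among filter-passing CpGs without overlap and with a difference of at least 0.1, and the 4 with the largest difference in each direction among those set apart, with at most 1 from any cluster of neighbouring CpGs.

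The smallest p among the lower filter-passing CpGs was at position 116651116 of chromosome 4, 53371 bp from LOC105947123 and methylation there was near complete in Nigerian frogs and intermediate in cryga:GFP. The cryga:GFP frogs were at 0.482, 0.481 and 0.498, and the Nigerian frogs had a lowest value of 0.939, a median of 0.956 and a highest value of 0.975. The 3 frogs lay within 0.02 of each other and far below every Nigerian frog, a difference of -4.47 in log2 odds (SE 0.179; limma, adjusted p = 5.26e-15).

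At position 116277233 of chromosome 5, inside kcnab1, the same pattern held. The gene encodes a beta subunit of voltage-gated potassium channels. The cryga:GFP frogs were at 0.550, 0.550 and 0.532 against 0.897, 0.917 and 0.944 (lowest, median, highest) in Nigerian frogs, a difference of -3.29 in log2 odds (SE 0.173; limma, adjusted p = 4.45e-13). SUPERMAN F8 frogs, a further strain of 332 days sequenced in the same lane (9 frogs), lay at 0.887 to 0.957, on the Nigerian side. Near pkia, which encodes an inhibitor of protein kinase A, a CpG at position 123133417 of chromosome 6 and 34251 bp from the gene started from a middle level. It was at 0.305, 0.283 and 0.316 in cryga:GFP against 0.549 to 0.624 (median 0.586) in Nigerian frogs (limma, adjusted p = 4.42e-13). SUPERMAN F8 frogs there had 0.488 to 0.623, again apart from the transgenic frogs.

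The uncharacterised gene LOC101730485 on chromosome 8 held a CpG among the named ones in each direction, 679 bp apart. At position 20166830 the cryga:GFP frogs were lower, at 0.716, 0.706 and 0.706 against 0.924 to 0.953 in Nigerian frogs (limma, adjusted p = 1.11e-13). At position 20166151 they were higher, at 0.855, 0.844 and 0.848 against 0.583 to 0.694 (limma, adjusted p = 4.32e-11). Both CpGs are inside the same gene, and neither overlapped between the groups. At the higher CpG the SUPERMAN F8 frogs, at 0.872 to 0.951, lay above the cryga:GFP frogs as well, so there the Nigerian frogs were the ones at the low end.

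The remaining 4 of the 8 lower CpGs all came from a 1.1 Mb stretch of chromosome 1 described further on. At position 33395338 the cryga:GFP frogs had 0.667, 0.652 and 0.669 against 0.935 to 0.962, and at position 33100146 they had 0.602, 0.591 and 0.603 against 0.876 to 0.923. At position 32794926 they had 0.664, 0.681 and 0.648 against 0.898 to 0.935, and at position 33331787 they had 0.776, 0.771 and 0.797 against 0.937 to 0.957. In each case the fall was from a level near 0.9 or above to between 0.59 and 0.80, with a narrow spread in both groups.

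The largest rise among the named filter-passing CpGs was inside LOC100486481 on chromosome 7 (position 36237266). The cryga:GFP frogs were at 0.919, 0.911 and 0.945 and the Nigerian frogs at 0.443 (lowest), 0.590 (median) and 0.718 (highest), a difference of 3.16 in log2 odds (SE 0.309; limma, adjusted p = 3.29e-08). SUPERMAN F8 frogs spread from 0.612 to 0.965 and so took in the levels of the transgenic frogs.

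Inside zmynd11, which encodes a chromatin protein that in mammals reads a methylated histone mark over transcribed genes, the CpG at position 18836043 of chromosome 6 was higher. The cryga:GFP frogs had 0.790, 0.809 and 0.794 against 0.494, 0.562 and 0.623 (lowest, median, highest) in Nigerian frogs, a difference of 1.65 in log2 odds (SE 0.144; limma, adjusted p = 4.25e-09). The SUPERMAN F8 frogs, at 0.601 to 0.803, reached from the Nigerian to the cryga:GFP levels. A CpG at position 158608848 of chromosome 5, 23638 bp from LOC116411034, had the smallest p of the higher filter-passing CpGs, with 0.697, 0.724 and 0.711 against 0.427 to 0.505 (1.52 in log2 odds, SE 0.092; limma, adjusted p = 5.18e-12). There the SUPERMAN F8 frogs spread from 0.476 to 0.769 and took in the cryga:GFP levels. Near pdlim4, which encodes a protein bound to the actin cytoskeleton, the difference was smaller, with 0.809, 0.811 and 0.806 against 0.646 to 0.726 at position 36584964 of chromosome 3, 48631 bp from the gene, a shift of 0.111 (limma, adjusted p = 3.68e-08).

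The other 3 higher CpGs lay in or near sequence printed above or in the chromosome 1 stretch. In the chromosome 3 probe, 22142 bp from LOC100488536, the cryga:GFP frogs had 0.704, 0.706 and 0.668 against 0.360 to 0.508, and the SUPERMAN F8 frogs lay with the Nigerian frogs at 0.414 to 0.512. In the probe at the start of chromosome 10, 735 bp from LOC101731736, they had 0.756, 0.772 and 0.772 against 0.451 to 0.591, and the SUPERMAN F8 frogs, at 0.632 to 0.731, lay between the groups. At position 33203077 of chromosome 1 they had 0.807, 0.841 and 0.820 against 0.599 to 0.719.

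**Figure D2:**
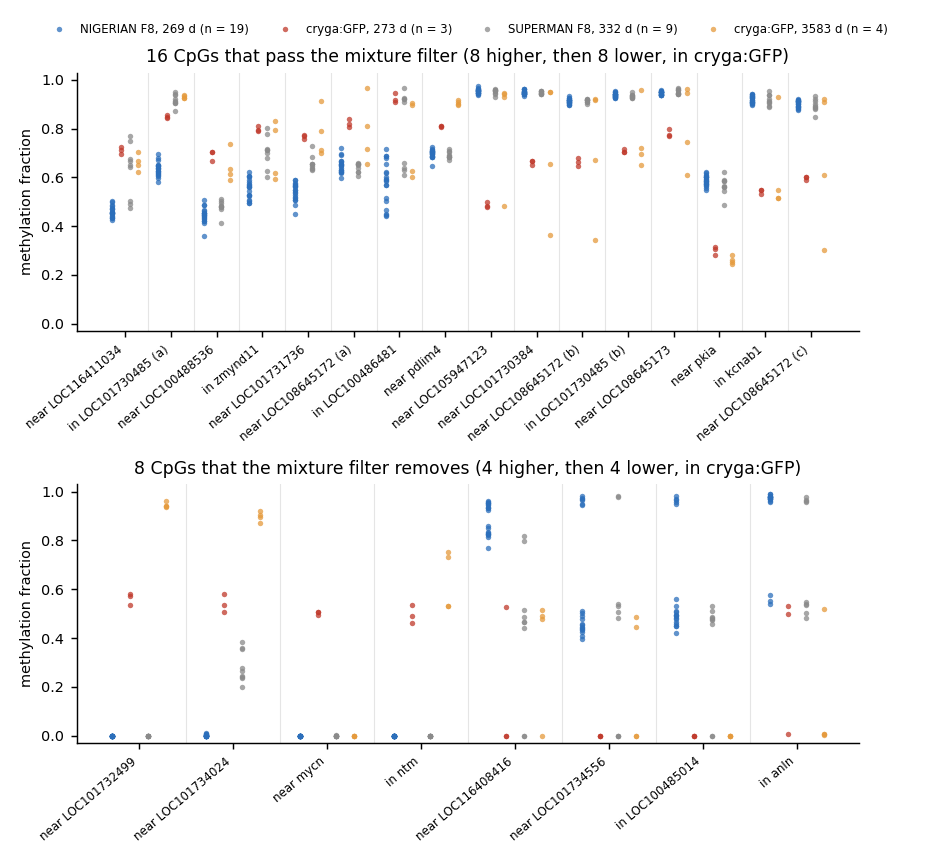
Methylation fraction of each frog at the 16 named CpGs that pass the mixture filter (top) and the 8 that it removes (bottom), labelled by nearest gene, with 1 point per frog for Nigerian (n = 19), cryga:GFP of 273 days (n = 3), SUPERMAN F8 (n = 9) and cryga:GFP of 3583 days (n = 4). In the top panel the red and blue points do not overlap, for example 0.481 to 0.498 against 0.939 to 0.975 near LOC105947123, and in the bottom panel single frogs sit at 0, near the middle or near the top of the scale.

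At the CpGs that the 3-level filter set apart, single frogs often sat at 0, near 0.5 or near 1. At position 95397763 of chromosome 6, 85251 bp from LOC101732499, all Nigerian and all SUPERMAN F8 frogs were listed at 0 while the cryga:GFP frogs had 0.582, 0.571 and 0.534. At position 140936009 of chromosome 5, 46120 bp from mycn, a transcription factor gene of the Myc family, they had 0.495, 0.509 and 0.507 and the Nigerian frogs were again all at 0. Inside ntm on chromosome 7 (position 68725869), which encodes the neural adhesion protein neurotrimin, they had 0.536, 0.460 and 0.490 against 0 in every Nigerian frog. In these cases the level of the transgenic frogs was close to the midpoint of the scale. The fourth higher CpG, at position 213720862 of chromosome 1 and 33740 bp from LOC101734024, had 0.508, 0.536 and 0.579 against 0 to 0.0124, and 0.197 to 0.385 in SUPERMAN F8.

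The lower CpGs of this kind ran the other way. Inside LOC100485014 on chromosome 2 (position 98175889) all 3 cryga:GFP frogs were listed at 0, while the Nigerian frogs had 0.420 at the lowest, a median of 0.495 and 0.981 at the highest. At position 115067885 of chromosome 7, 210495 bp from LOC101734556, the 3 frogs were again at 0 against 0.397, 0.479 and 0.982. Nigerian frogs thus differed among themselves in steps at these CpGs. SUPERMAN F8 frogs ran from 0 to 0.532 at the former and from 0 to 0.983 at the latter, so a level of 0 was not limited to the transgenic frogs. In the anln probe printed above, inside the gene for anillin, which organises the contractile ring of dividing cells, the cryga:GFP frogs themselves differed, at 0.532, 0.00785 and 0.499 against 0.538 to 0.990 with a median of 0.974. At position 9652554 of chromosome 1, 5036 bp from LOC116408416, which is annotated as a V segment, they had 0, 0 and 0.526 against 0.77 to 0.960. Frogs of the same line therefore did not share a single level at the last 2 CpGs. SUPERMAN F8 frogs had 0.483 to 0.9775 at the anln CpG and 0 to 0.819 at position 9652554.

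A pattern chosen after the values were seen was counted over all CpGs: levels from 0.4 to 0.6 in all 3 cryga:GFP frogs where every Nigerian frog was above 0.8. It occurred at 44 CpGs in 41 clusters, with median levels of 0.489 and 0.916, and 38 of the 44 were set apart by the filter. Of the 44, 22 lay in a gene span, where 37.7% of all CpGs lie. Chromosomes 1, 3 and 8 held 18, 10 and 9, and hold 29.7%, 9.29% and 9.68% of all CpGs. Levels of 0.4 to 0.6 in all 3 frogs where every Nigerian frog was below 0.1 occurred at 5 CpGs. The reverse patterns, with all 19 Nigerian frogs at 0.4 to 0.6, occurred at 0 CpGs, but agreement of 19 frogs is a stricter demand than agreement of 3. At 15 of the 44 CpGs all SUPERMAN F8 frogs were also above 0.8. At 39 of the 44 some other adult of the series was below 0.1. The filter sets a CpG apart only if some frog is below 0.006, so this count was largely fixed for the 38.

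Counted within single frogs, which does not depend on group size, intermediate levels were more frequent in the transgenic frogs at the set-apart CpGs. There the share of values from 0.4 to 0.6 was 29.8% to 32.2% in cryga:GFP and 10.7% to 26.0% (median 16.0%) in Nigerian frogs, without overlap. SUPERMAN F8 frogs ranged from 18.2% to 31.7% and the older cryga:GFP frogs from 12.3% to 19.9%, the latter from another lane and apart from the young frogs of the line. At the CpGs that passed the filter the groups overlapped, at 4.58% to 4.88% against 4.26% to 5.05%.

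**Figure D3:**
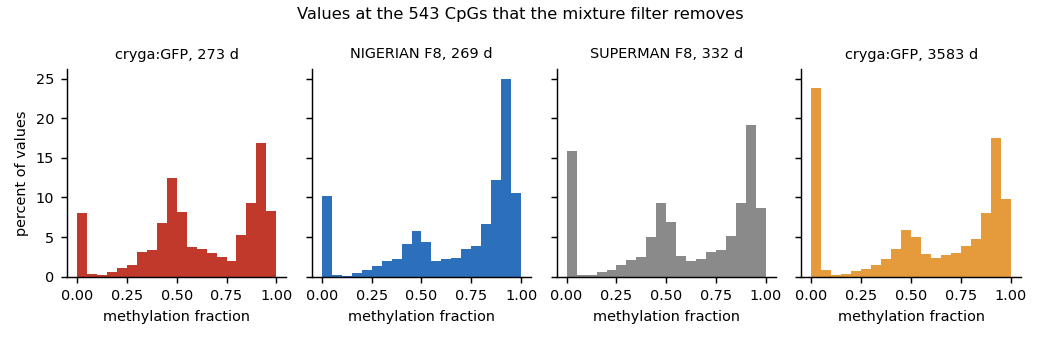
Histograms of methylation fraction (horizontal axis) at the 543 CpGs that the mixture filter removes, as the percent of all values of a group in each bar, 1 panel each for cryga:GFP of 273 days, Nigerian, SUPERMAN F8 and cryga:GFP of 3583 days. In cryga:GFP of 273 days 44.0% of values lie from 0.3 to 0.7 against 25.1% in Nigerian frogs, and 8.35% against 10.3% lie below 0.1.

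A 1.1 Mb stretch of chromosome 1 held 143 of the 558 calls (25.6%), 56 higher and 87 lower, in 77 of its 199 clusters. The window was drawn after the calls were seen and its ends were rounded outward to 0.1 Mb. The capture covers it densely, with 1156 of the 6717 CpGs (17.2%), so 12.4% of its CpGs were called, against 415 of 5561 (7.46%) elsewhere. The called CpGs ran from position 32433303 to 33480699, and 29 of the 1156 lay in an annotated gene span. Only 21 of the 143 calls were at CpGs the 3-level filter set apart. Higher and lower CpGs were interleaved, and the median difference was 0.134 at the 56 higher and -0.163 at the 87 lower.

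The 87 lower CpGs of the stretch were picked for being lower in the 3 transgenic frogs, so a low mean in those frogs follows from the choice. Averaged over the 87, the transgenic frogs had 0.679, 0.683 and 0.673, and the Nigerian frogs had 0.841 to 0.857 (median 0.85). The SUPERMAN F8 frogs, which played no part in choosing these CpGs, had 0.840 to 0.856, the same span as the Nigerian frogs. The 4 older cryga:GFP frogs split widely, at 0.467, 0.665, 0.834 and 0.831. Of the 165 other adults of the series, 30 were at or below the highest cryga:GFP mean: all 22 Xtr.Tg(eef1a1:GFP)Krieg frogs of 3987 days, the oldest of the series, 4 of 5 tubb2b GFP frogs of 2059 days, 2 of 13 CMV MEM GFP frogs of 841 days and 2 of the 4 older cryga:GFP frogs. Low levels here thus also occurred in frogs of other strains and ages, while the 5 Xtr.Tg(eef1a1:GFP)Krieg frogs of 2523 days had 0.724 to 0.748.

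At the 56 higher CpGs the cryga:GFP frogs had means of 0.842 to 0.85. The Nigerian frogs spread from 0.636 to 0.798 in separate bands, with 6 frogs at 0.63 to 0.65, 10 at 0.70 to 0.73 and 3 at 0.77 to 0.81. The 9 SUPERMAN F8 frogs fell in the same bands, with 3, 5 and 1 frogs. Only 3 of the 165 other adults were at or above the lowest cryga:GFP mean, and the same 3 also met the low mean over the 87 CpGs. Both means describe CpGs picked for their difference between the groups, so only the frogs outside the 2 groups add to them.

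The cluster with the most calls in 1 direction was in this stretch, and 6 clusters with 5 calls each came next, of which the pair taken by genome order is given here. In the cluster from 32811009 to 32813256, 12 of 75 CpGs were higher by 0.0326 to 0.180. Averaged over those 12 only, the frog means were 0.788, 0.794 and 0.785 against 0.654, 0.679 and 0.791 (lowest, median, highest), so at least 1 Nigerian frog reached the cryga:GFP level there. In the cluster from 32576756 to 32577190, 5 of 34 CpGs were lower. Over those 5 the frog means of 0.856, 0.842 and 0.851 lay below the Nigerian range of 0.933 to 0.953. In the cluster from 33050952 to 33051118, to which the printed repeat belongs, 5 of 14 were lower, with means over those 5 of 0.755, 0.802 and 0.760 against 0.931 to 0.954. The CpGs averaged were those called, so these gaps follow in part from the choice and do not describe whole clusters. The nearest annotated genes were 445799, 336187 and 207937 bp away (LOC108645172, stim2 and LOC108645172).

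**Figure D4:**
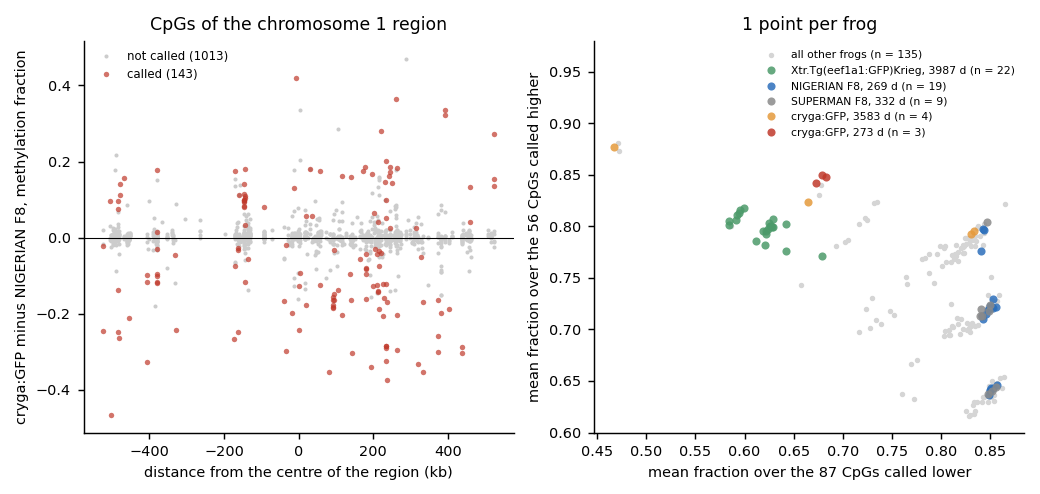
Left, difference in mean methylation fraction (cryga:GFP minus Nigerian) at each CpG of the chromosome 1 stretch by distance from its centre in kb, with the 143 called CpGs in red. Right, 1 point per frog, with the mean fraction over the 87 lower CpGs on the horizontal axis and over the 56 higher CpGs on the vertical axis, coloured by group; the 3 cryga:GFP frogs of 273 days lie at 0.673 to 0.683 on the horizontal axis, the Nigerian frogs at 0.841 to 0.857.

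The first 1 Mb of chromosome 10 held a smaller group of calls, at 26 of 88 CpGs (29.5%), 11 higher and 15 lower, between positions 1163 and 17712. Over the higher CpGs the cryga:GFP frogs had means of 0.685 to 0.713 and the Nigerian frogs 0.519 to 0.584. Over the lower ones they had 0.594 to 0.637 against 0.712 to 0.758. Only called CpGs were averaged and the place was picked after the calls were seen, so these gaps follow in part from the choice. SUPERMAN F8 frogs had 0.526 to 0.620 over the higher CpGs, overlapping the Nigerian frogs, and 0.641 to 0.709 over the lower ones, between the groups. As in the chromosome 1 stretch, both directions occurred within a few kb of each other.

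Calls also gathered in single genes, picked here because every one of their CpGs was called in the same direction. In trpc4ap, whose product is a substrate receptor of a ubiquitin ligase in mammals, all 5 CpGs were lower, spaced 28 bp apart from position 43029118 to 43029230, of which the repeat printed above holds 4. Averaged over the 5, the cryga:GFP frogs had 0.652, 0.648 and 0.606 against 0.923, 0.942 and 0.956 (lowest, median, highest) in Nigerian frogs, with adjusted p from 2.93e-12 to 1.39e-07 (limma). Each of the 3 frogs was lower. The 4 older cryga:GFP frogs, of 3583 days, had 0.584 to 0.599. These levels lay below the 20 frogs of 4 other strains of 3090 to 3301 days (0.606 to 0.925). Frogs of 3987 days were not looked at there. SUPERMAN F8 frogs had 0.870 to 0.947. The copies of the repeat are near identical in sequence, so reads may be placed on the wrong copy and the 5 values are not independent.

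In sorcs2, a sorting receptor of the VPS10 family, all 4 CpGs were lower, of which 2 were set apart by the filter. The means of 0.672, 0.690 and 0.668 lay below the Nigerian range of 0.813 to 0.886, while the older cryga:GFP frogs ran from 0.560 to 0.804. In prr12, which encodes a proline-rich nuclear protein, all 4 CpGs on chromosome 7 (110660838 to 110660896) were higher, but the frog means of 0.432, 0.366 and 0.446 overlapped the Nigerian range of 0.241 to 0.376 and the adjusted p were 0.013 to 0.040 (limma). On chromosome 6 from 18 to 19 Mb, 11 of 17 CpGs were called (64.7%), 10 of them higher. Counted by nearest gene, whether or not the CpG lies inside it, these included 3 of 3 CpGs for zmynd11 and 5 of 10 for LOC101734054. They also included 2 of 3 for wdr60, a gene for a motor subunit of intraflagellar transport, and 1 of 1 for ncapg2, a condensin subunit gene. In all, 111 of the 892 genes with a measured CpG inside had at least 1 call.

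The gene lists taken for the lens promoter and for skin gave few measured CpGs, and most did not pass the test. Over all CpGs 8.31% were called, so 0 calls among 2 to 5 CpGs cannot show that a list lacks differences. Crystallins, the structural proteins of the lens, had 4 CpGs near 2 genes and 0 calls. The 3 CpGs near cryga.1, which also lie inside c2orf80, differed by -0.0054, -0.020 and 0.0084 (limma, adjusted p = 0.762, 0.809 and 0.282). The transgene carries a cryga promoter, but whether reads from it reached these CpGs was not tested. The CpG near cryz, the gene for zeta-crystallin, a quinone oxidoreductase, was at 0.544, 0.0088 and 0.957 in the 3 frogs against 0.507 to 0.975 and did not pass the test (limma, adjusted p = 0.0588). Keratins, the filament proteins of epidermis, were represented by 2 CpGs near krt62 with 0 calls, and pigment genes by 5 CpGs near pmel, a pigment-granule protein gene, with 0 calls. No gene on the blood and immune list had a measured CpG, so blood in the punch could not be looked at in this way.

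Developmental regulators had 13 CpGs near 10 genes, of which 1 was higher and 0 were lower, against 2.89% and 5.42% of all CpGs. The called CpG lay near pax3, a transcription factor gene of muscle and neural crest, with 0.349, 0.275 and 0.329 against 0.135, 0.204 and 0.243 (lowest, median, highest), a difference of 0.91 in log2 odds (SE 0.18; limma, adjusted p = 0.000997). The other pax3 CpG did not pass (adjusted p = 0.177). Of the DNA methylation enzymes, dnmt1, which copies methylation after replication, and tet2, which oxidises methylcytosine, had 3 CpGs, of which 1 was lower; over all CpGs 5.42% were. That CpG, inside tet2 and set apart by the filter, had 0.145, 0.127 and 0.158 against 0.223, 0.261 and 0.340. The difference was -1.13 in log2 odds (SE 0.17, limma, adjusted p = 3.19e-05). The SUPERMAN F8 frogs had a median of 0.174 there, and the older cryga:GFP frogs 0.330, above the Nigerian median.

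Because the CpGs were captured for their relation to age, the calls were also set against the age trend in the 165 adults outside the 2 groups. Of 285 CpGs that rise with age in those adults, 66 were higher in cryga:GFP (23.2%) and 8 lower (2.81%). Of 1403 that fall with age, 203 were lower (14.5%) and 10 higher (0.713%). At the 5029 CpGs without an age trend the shares were 2.35% higher and 3.04% lower. At CpGs with such a trend, the calls thus lay mostly on the side that older frogs of the series take, while both groups compared were about 9 months old. Strain mostly changes along with age among these adults, so whether the trend reflects age apart from strain was not tested. The trend p-values also treat each adult as independent, although many had the same strain and age. The trend was also taken without the 4 older cryga:GFP frogs, which share the strain; of 262 rising CpGs 57 were then higher and of 1514 falling CpGs 200 were lower. At falling CpGs the 3-level filter mattered, since 92 of 1133 that passed it were lower (8.12%) against 111 of 270 set apart (41.1%). At rising CpGs that passed it, 61 of 251 were higher (24.3%).

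An elastic net trained on the 170 frogs of the other groups gave a predicted age for each frog from the filter-passing CpGs. The cryga:GFP frogs were placed at 1367, 1460 and 1431 days (mean 1419 ± 47.5, SD, n = 3) and the Nigerian frogs at 271 to 725 days (mean 500.0 ± 108, SD, n = 19). The difference of 919.5 days had a two-sided exact permutation p of 0.0013, the smallest that 3 against 19 frogs allow. Both group means were above the true age, and that of the transgenic frogs more so. With the older cryga:GFP frogs left out of training the transgenic frogs were at 1138 to 1231 days and the difference was 690 days, and with age on a log scale it was 292 days, both with the same p. Training on frogs up to 3000 days gave 317 days. A net on all CpGs, those set apart included, gave 1218.5 days, with a Nigerian mean of 243 days, below the true age.

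The prediction is coarse for a group it was not trained on, where a group is the frogs of 1 strain and age. Frogs of the same strain at another age, where there were any, stayed in training. When each of the 28 groups was left out of training in turn, the error of the group mean had a median size of 363 days and ranged from 75.3 to 1796 days. SUPERMAN F8 frogs of 332 days, when left out, were predicted at 756 to 1176 days, an error of 644 days. The largest positive error, 1256 days, was in a group of a single tubb2b GFP frog of 547 days. Every left-out group of 332 to 899 days was predicted above its true age, by 578 to 1256 days. The error of the transgenic frogs, at a mean of 1419.5 days against 273, lay within that range only because of that single frog. It was above the errors of the groups of these ages with more frogs, the largest of which was 972 days (6 OLIG2 F1 frogs of 899 days). The WT Superman frogs of 937 days had an error of -260 days. The Nigerian mean, 500 days against 269, was nearer to the true age than any of these. The gap between the groups thus rests also on the small Nigerian error. The elastic net kept 4970 CpGs, and the one for log age 220. In the former, CpGs that raised the difference added 1379 days and those that lowered it -459 days, to a sum of 919.5. The 10 CpGs with the largest contributions together added 280 days. They included 2 of the trpc4ap CpGs (30.7 and 23.6 days) and the kcnab1 CpG (24.1 days).

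Mean methylation over all CpGs was lower in the transgenic frogs by a small amount, 0.8246 ± 0.0035 (SD, n = 3) against 0.8318 ± 0.0042 (SD, n = 19), a difference of -0.00721 with a two-sided exact permutation p of 0.0104. Over the CpGs that passed the filter the difference was -0.00226 and no longer passed (exact permutation p = 0.377). Without cryga:GFP frog 2, or without frog 3, the exact permutation p was 0.0762.

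**Figure D5:**
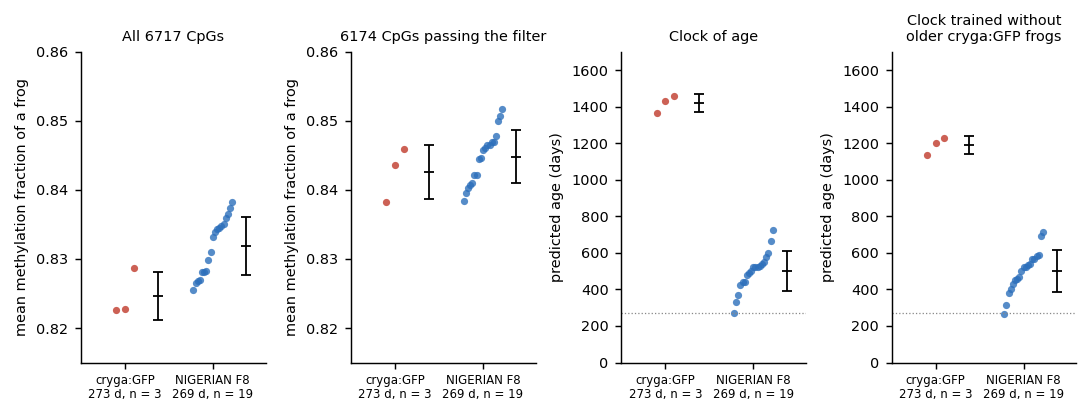
Each point is a cryga:GFP (n = 3) or Nigerian (n = 19) frog, with the mean methylation fraction over all CpGs and over those passing the filter in the left panels (axes do not start at 0), and the predicted age in days, with and without the older cryga:GFP frogs in training, in the right panels; bars are mean ± SD, points are sorted within a group, and the dotted line marks 273 days. The cryga:GFP frogs lie at 1367 to 1460 predicted days, above the Nigerian range of 271 to 725, while the mean fractions overlap.

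Older frogs of the same transgenic line allowed the levels to be looked at in animals that played no part in the calls. The 4 cryga:GFP frogs of 3583 days were compared with 20 frogs of 4 other strains of 3090 to 3301 days, all from another lane than the young frogs. These were Xtr.Et(CAGGS-SB10;cryga:RFP)7M8FMead (5 frogs), 8FMead, which is labelled with both CAGGS-SB10,cryga:RFP and CAGGS:GFP (5), Xtr.Et(eef1a1:GFP)hbrMead (4) and Xtr.Et(eef1a1:GFP)johMead (6). All are transgenic lines, and by their names 10 of the 20 frogs also carry a cryga construct, with a red reporter, so the comparison does not set a cryga promoter against none. In that comparison 1019 CpGs were called (15.2%), 818 higher (12.2%) and 201 lower (2.99%), and the median shift over all CpGs was 0.297 in log2 odds, so the sign of a difference is read relative to that shift. Relative to it, 154 of the 194 CpGs higher at 9 months were also higher in the older line (79.4%, against 60.1% of all CpGs that were higher at 9 months), and 307 of the 364 lower CpGs were also lower (84.3%, against 58.2%). The calls themselves were made without taking off this shift. Called in the same direction were 59 of the 194 (30.4%) and 111 of the 364 (30.5%). Of all CpGs higher or lower at 9 months, 16.1% and 4.44% were called in the same direction. Called in the opposite direction were 2 of the 194 and 20 of the 364, against 36 of 2998 and 336 of 3719 among all CpGs. Against the 22 Xtr.Tg(eef1a1:GFP)Krieg frogs of 3987 days instead, the shares with the same sign before any shift was taken off were 67.0% of the higher and 53.6% of the lower CpGs, against 69.1% and 38.0% of all CpGs. The comparison strains at the 2 ages differ, so whether the line's difference changes with age was not tested.

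Single CpGs showed both outcomes. Near pkia the older frogs were at 0.243 to 0.282, below the young transgenic frogs, but the 20 older frogs of other strains spanned 0.200 to 0.609 (median 0.319). At the kcnab1 CpG they ran from 0.515 to 0.930, and at the chromosome 4 CpG near LOC105947123 from 0.481 to 0.944, so frogs of the line differed among themselves. The older frogs of other strains had 0.415 to 0.906 (median 0.558) at the former and 0.463 to 0.949 at the latter, so low levels were not limited to the line. Near mycn all 4 older frogs were listed at 0, as the Nigerian frogs were. At the CpG near LOC101732499, where the young transgenic frogs were at 0.534 to 0.582, the older frogs had 0.938 to 0.964.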

How the data were processed

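The members and gene lists were chosen with earlier results of these data known. The authors captured chosen regions from DNA of webbing skin (whole body in tadpoles), treated the captured fragments with bisulfite, trimmed reads with fastp, aligned them to the v10.0 assembly and called methylation with BiSulfite Bolt, and deposited 1 table of methylation fractions for CpGs read at least 100 times in every frog; read counts were not used here. The submitters' processing notes also name SAMtools 1.11. No value was rescaled. Each CpG was tested with limma 3.58.1 (R 4.3.3) on log2((f + 0.001)/(1 - f + 0.001)), 3 against 19 frogs, no covariates, Benjamini-Hochberg over 6717 CpGs, adjusted p under 0.05. Single values per frog were tested by two-sided exact permutation over 1540 splits. The 3-level filter (Gaussian mixtures), elastic net and exact tests used scikit-learn 1.9.0 and scipy 1.17.1 in Python 3.11.15; scripts were tested on simulated data. Age trends used Spearman correlation with adjusted p under 0.001. Gene spans came from RefSeq without strand or exons, so exon and intron were not told apart. Probe sequences and limits are those listed by the study; of 3142 measured positions inside a probe, 99.0% met a CG when placed on the G, counted from 1, and this was used for the capitals. CpGs within 500 bp formed a cluster. Named CpGs followed the rule in the text, plus the 3 clusters with most calls in 1 direction; other genes and windows were chosen after their values were seen. Alternatives covered the offset, untransformed fractions, robust fitting, SUPERMAN F8 frogs or depth in the fit, the threshold, the filter, cluster means and leaving out frogs.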

Additional observations from a re-analysis of the deposited data

Results flagged for a closer look

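The 24 named CpGs and 4 means per frog were looked at in the 9 SUPERMAN F8 and the 4 older cryga:GFP frogs. In 6 of these 56 cases, all at named CpGs, 1 frog stood far from the rest of its group by Dixon's ratio; chance alone gives about 1 in 20. Among the SUPERMAN F8 frogs, 1 was at 0.4144 at position 13274139 of chromosome 3, with the others at 0.470 to 0.512, and 1 was at 0.0041 at position 140936009 of chromosome 5, with the others at 0, where any value above 0 would stand out. Among the 4 older cryga:GFP frogs, 1 was at 0.481 at position 116651116 of chromosome 4 with the others at 0.931 to 0.944, and 1 was at 0.930 at the kcnab1 CpG with the others at 0.515 to 0.550. In the same group 1 frog was at 0 at position 9652554 of chromosome 1 with the others at 0.476 to 0.516, and 1 was at 0.518 at the anln CpG with the others at 0.0037 to 0.0050. The young groups, of 3 and 19 frogs, are outside the sizes for which the ratio is used.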

How the results depend on the processing

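No paired analysis was possible because the labels give no replicate numbers that pair frogs between the groups. The 24 named CpGs kept direction and call in all 624 fits. These changed the offset, used untransformed fractions, added SUPERMAN F8 frogs or depth, or left out 1 frog. Robust fitting, the filter and cluster means were not looked at for the named CpGs. The named CpGs were picked for a small p or a large difference, which favours this outcome. Against 194 CpGs higher and 364 lower, an adjusted p under 0.01 left 117 higher, and tests on cluster means called 69 higher and 196 lower of 2365 clusters, where fewer units were tested. With filter-passing CpGs only, 206 were lower, and 118 were lower by at least 0.1 against 255. The other settings gave 138 to 196 higher and 277 to 402 lower. Leaving out 1 frog gave 122 to 215 higher, the lowest count without cryga:GFP frog 1, and 303 to 373 lower, and with a difference of at least 0.1 it gave 74 to 114 and 230 to 257. The mean methylation difference lay between -0.0092 and -0.00618 (exact permutation p from 0.00952 to 0.0762) and the predicted age difference between 899 and 946 days. Mean methylation lost its call on filter-passing CpGs (-0.00226, p = 0.377) and for the median over CpGs (-0.00411, p = 0.0779); the cause was not tested. Before the shift over all CpGs was taken off, 80.3% of called CpGs had the same sign in older cryga:GFP frogs, against 54.1% of all CpGs. By direction it was 90.7% of the higher calls, against 89.6% of all higher CpGs, and 74.7% of the lower calls, against 25.4%. The share of called CpGs was 58.2% against the 3987-day frogs. With the first comparators it was 84.1% at called CpGs that differ by at least 0.1. There were 3 transgenic frogs, and read counts were not used. Beyond the floor of 100 reads per CpG, the counting error of single values is therefore not given.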
